A study of Mus musculus with 6 samples.

Results

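Solute carriers of the plasma membrane and of vesicles are described here in 6 mouse mammary tumours. They were taken as probe sets annotated to exactly 1 gene whose symbol starts with Slc and a number. The families Slc25, Slc35 and Slc37, whose members mostly sit in mitochondria, the Golgi apparatus and the endoplasmic reticulum, were left out. Of 314 such probe sets (207 genes), 165 probe sets of 116 genes lay above the lowest 30% of all probe sets by mean (a log2 value of 6.09). These 116 genes, of 9248 genes tested in all, are the solute carriers below. Just inside the limit lay Slc29a2, with a mean of 6.10, and Slc7a10, with 6.14. Just outside lay Slc16a3, with 6.09, and Slc7a13 and Slc22a21, with 6.05 each.

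The control group was 3 tumours from control 4T1 cells, a mouse mammary tumour line, and the Bptf KD group 3 tumours from 4T1 cells given short-hairpin RNAs against Bptf by an MMLV retrovirus. Bptf belongs to the chromatin remodelling complex NURF, and the series asks about CD8 T cells and tumours depleted of that complex. In both groups 10000 cells were grafted, into the fourth mammary fat pad, in NSG mice (given as Ifrg2r -/- in the labels), which lack T, B and natural killer cells, and the tumours were taken on day 21. The sources used here do not give what the control cells carried, the number of hairpins and clones, or the age of the mice. Each tumour had an array of its own, and nothing says whether 2 tumours shared a mouse.

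Solute carriers move small molecules across membranes, most of them by coupling a solute to its own gradient or to that of sodium, protons or another solute. They set how much glucose, glutamine, cystine, phosphate, iron or zinc a cell can take up, and how it disposes of lactate and acid. In a mammary tumour grown in a fat pad they are read from tumour cells, macrophages, fibroblasts, vessels and fat together. In such bulk samples, fewer cells of a type and less RNA per cell cannot be told apart.

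The tumour labelled control 2 stood apart. Its correlation across genes with the other controls was 0.934 to 0.939, against 0.986 between controls 1 and 3, and it carried far more skeletal muscle RNA, with a mean log2 level of 11.79 over 12 marker genes against 8.93 and 6.35 in controls 1 and 3. Its Bptf level, 9.77, lay below that of the third Bptf KD tumour, 9.99. Bptf was at 10.69 and 10.59 in controls 1 and 3 and at 9.60 and 9.56 in the other Bptf KD tumours, a difference of -0.63 that did not pass (limma adjusted p = 0.371). Without the tumour labelled control 2 it was -0.92 and passed (limma adjusted p = 0.0305). These levels are of 1 Bptf probe set, the one with the highest mean. With all 6 tumours, the Bptf probe set with the largest SD gave -0.80 (SE 0.70). The mean of all Bptf probe sets gave -0.54 (SE 0.47). Neither passed (limma adjusted p = 0.704 and 0.703). On the lists of fat cell markers and of fibroblast and matrix markers the tumour labelled control 2 stood with the controls. Its mean log2 level over fat cell markers was 10.93, beside 10.31 and 10.05 in controls 1 and 3. The Bptf KD tumours had 7.01 to 7.97. For fibroblast and matrix markers it was 11.47, beside 11.43 and 11.66, with 10.23 to 10.50 in Bptf KD tumours. For neutrophil markers, of which 4 of 8 were measured, it was 8.995, inside the Bptf KD span of 8.67 to 9.06 and above 8.20 and 8.16. Most of this came from S100a8 and S100a9, where that tumour lay 1.54 and 1.42 above the mean of controls 1 and 3. For Csf3r and Camp that tumour lay 0.15 and 0.14 above it. Whether its label is right is in doubt and was not tested, and each Bptf KD minus control value rests on counting it as a control. Values without it are given where the call or direction turns or the size moves much.

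No solute carrier passed the test between Bptf KD and control tumours. Limma with Benjamini-Hochberg adjustment over all genes called 0 of 116 at an adjusted p under 0.05, where 0.811% of all genes were called, 0.151% higher and 0.66% lower. An unadjusted p under 0.05 was reached by 16 carriers, 13.8% beside 13.5% of all genes. Of these, 8 were higher (6.9% beside 7.66% of all genes) and 8 lower (6.9% beside 5.82%). The groups did not overlap in 25 carriers, 21.6% beside 20% of all genes. Of these, 13 were higher (11.2% beside 11.8%) and 12 lower (10.3% beside 8.17%). These shares are near the background, so none is a result about the carriers. The differences were small as well. Their median size was 0.14 on the log2 scale beside 0.17 for all genes, and 2 carriers differed at least 2-fold, Slc44a3 and Slc7a10, or 1.72% beside 2.71% of all genes. Of the 116 differences 61 were above 0 (52.6% beside 59.6% of all genes), 54 below and 1 at 0, with a median of 0.01 beside 0.06 for all genes.

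**Figure D1:**
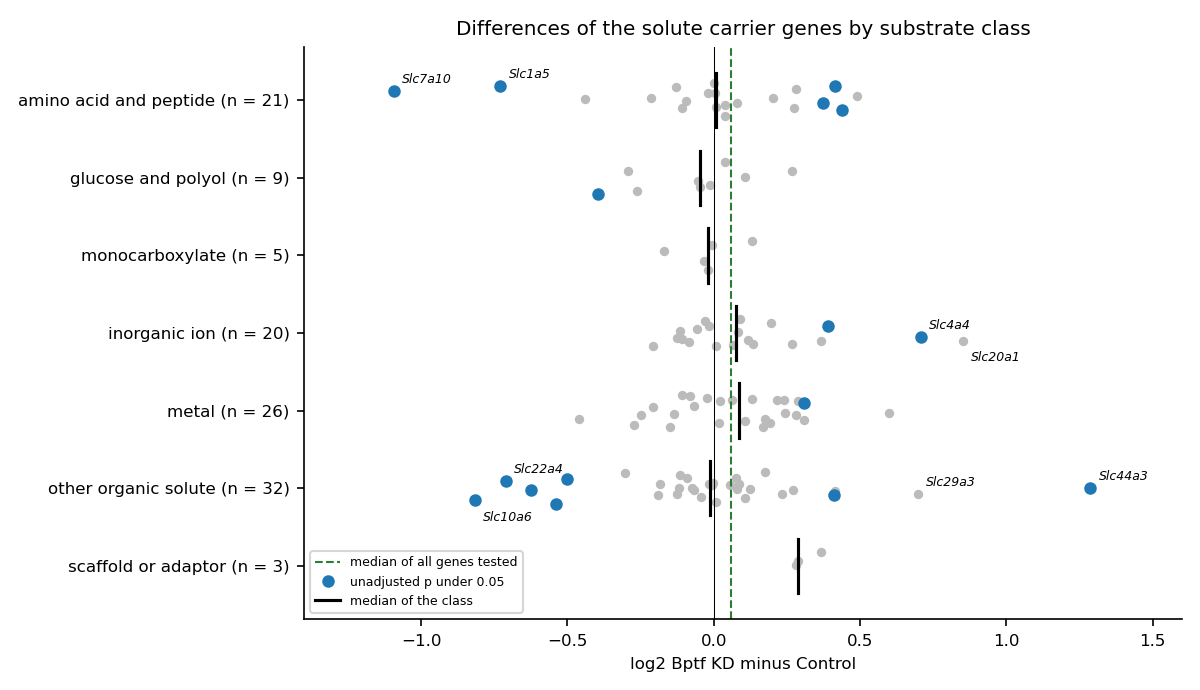
Log2 difference, Bptf KD minus control, of each of the 116 solute carrier genes (points) by substrate class, with the class median (black bar) and the median of all 9248 genes (dashed line). Points of every class but the 3 scaffold and adaptor genes lie on both sides of 0, and the ends are held by Slc7a10 at -1.09 and Slc44a3 at 1.29.

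The 4 carriers of smallest p came closest to the threshold, and each had groups that did not overlap: Slc1a5, Slc7a10 and Slc22a4 at lower and Slc44a3 at higher levels in Bptf KD tumours. For 3 of them, and for the cystine carrier Slc7a11, RefSeq start sites were at hand in the assembly GRCm38.p6. The 250 bases before each start are shown so that they can be read side by side. Slc7a11, with a difference of 0.41 (limma adjusted p = 0.346), is not one of the 4 carriers of smallest p. The capitals mark 6 motifs, each sought on both strands: the GC box, with the letters GGGCGG; the box of the factor NF-Y, with the letters CCAAT; the TATA box, with the letters TATAAA; the E-box, with the letters CACGTG; the core of the amino acid response element, with the letters TGATGNAA; and the core of the antioxidant response element, with the letters TGACNNNGC. No marked match overlaps another. Slc1a5 is named only.
Slc7a10, chr7:35186135-35186384, plus strand: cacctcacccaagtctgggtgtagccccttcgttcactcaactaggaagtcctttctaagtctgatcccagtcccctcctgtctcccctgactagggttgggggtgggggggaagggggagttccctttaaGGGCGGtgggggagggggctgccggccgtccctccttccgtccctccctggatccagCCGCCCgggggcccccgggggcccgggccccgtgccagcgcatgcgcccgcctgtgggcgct
Slc22a4, chr11:54028105-54028354, minus strand: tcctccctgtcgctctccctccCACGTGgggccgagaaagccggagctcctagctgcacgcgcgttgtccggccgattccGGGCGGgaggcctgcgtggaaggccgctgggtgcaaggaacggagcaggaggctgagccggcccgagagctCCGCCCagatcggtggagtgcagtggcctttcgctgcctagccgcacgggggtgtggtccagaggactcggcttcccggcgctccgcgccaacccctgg
Slc44a3, chr3:121532345-121532594, minus strand: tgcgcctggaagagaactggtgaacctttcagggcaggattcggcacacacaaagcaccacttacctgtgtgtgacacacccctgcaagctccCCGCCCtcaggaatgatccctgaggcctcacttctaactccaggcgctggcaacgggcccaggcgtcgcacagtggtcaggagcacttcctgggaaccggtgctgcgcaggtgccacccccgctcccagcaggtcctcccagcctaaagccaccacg
Slc7a11, chr3:50443614-50443863, minus strand: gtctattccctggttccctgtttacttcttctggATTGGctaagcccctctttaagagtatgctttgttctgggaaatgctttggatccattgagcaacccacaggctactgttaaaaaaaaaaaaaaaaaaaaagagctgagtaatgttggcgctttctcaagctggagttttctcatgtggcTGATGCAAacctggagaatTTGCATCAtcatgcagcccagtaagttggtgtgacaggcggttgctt

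The GC box stood in the Slc7a10, Slc22a4 and Slc44a3 windows and not in that of Slc7a11, and it was found in 32.7% of 32851 RefSeq windows of this length and in 56.8% of the 118 windows of solute carriers. The window of Slc7a11 held TGATGNAA 2 times, beginning 66 and 47 bases before the start and on opposite strands. That motif was in 3.45% of all windows and 3.39% of carrier windows. The NF-Y box was in 33.8% of all windows and 31.4% of carrier windows, the TATA box in 12.4% and 3.39%, the E-box in 6.02% and 9.32%, and the antioxidant core in 10.2% and 14.4%. Of the 116 carriers 87 matched a window, some with several. The carrier windows belong to genes above the limit, while the 32851 windows were not filtered by level. The shares are thus of unlike sets, and none is read as a trait of carriers. A match is a description of letters and not a site.

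Among the amino acid carriers were Slc7a10, the lowest difference of all carriers, and Slc1a5. Of the 21 measured genes 12 differed above 0, 8 below and 1 not at all, with a median of 0.01 and 0 called. An unadjusted p under 0.05 was reached by 3 at higher and 2 at lower levels, beside 7.66% and 5.82% of all genes. Without the tumour labelled control 2 the median turned to -0.06. In that fit 0 were called higher and 3 lower, beside 1.94% and 2.52% of all genes. Of the 3, Slc7a10 had passed the filter only through its control levels.

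Slc1a5, the sodium-dependent exchanger that brings glutamine into many tumour cells, stood at 8.27, 8.28 and 8.43 (log2) in the controls, numbered 1 to 3, while the Bptf KD tumours had 7.76, 7.50 and 7.53. All 3 Bptf KD tumours lay below all controls, and the controls lay close together. The means were 8.33 ± 0.09 and 7.60 ± 0.14 (SD, n = 3 each), a level 1.66-fold lower in Bptf KD tumours. The difference of -0.73 (SE 0.13) did not pass (limma adjusted p = 0.0633, exact two-sided permutation p = 0.1, the smallest that 3 against 3 can give).

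Slc7a10, an exchanger of serine, glycine and other small neutral amino acids known from the surface of white fat cells, was at 6.39, 7.10 and 6.57 in controls and at 5.59, 5.52 and 5.67 in Bptf KD tumours. The groups did not overlap, the tumour labelled control 2 was highest, and every Bptf KD level lay below the limit of 6.09. Its difference was -1.09 (SE 0.20), and it did not pass (limma adjusted p = 0.0666). It was kept through its control levels, and how much of its Bptf KD level is background is not known. Markers of fat cells moved with it. Of 12 markers 9 were measured and all 9 were lower in Bptf KD tumours, 6 of them called, with a median difference of -2.85. Their summed level (log2 of the sum of linear values) was 14.77 to 15.54 in controls, and Bptf KD tumours had 11.77 to 12.25, while Plin1, Cfd and Pck1 were not measured above the limit. The part of fat cells in the difference of Slc7a10 was not tested.

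The partners of the heterodimeric exchangers were variable among the controls. Slc3a2, the heavy chain that carries Slc7a5, Slc7a7, Slc7a8, Slc7a10 and Slc7a11 to the cell surface, was at 10.80, 9.78 and 10.36 in controls and 10.56, 10.38 and 10.61 in Bptf KD tumours. Slc7a5, which exchanges large neutral amino acids, was at 10.11, 8.09 and 9.85 and at 10.01, 9.36 and 10.15. In both genes the tumour labelled control 2 was lowest of all 6 and the groups overlapped. The difference of Slc3a2 was 0.20 with a 95% interval of -0.40 to 0.81, and that of Slc7a5 was 0.49 with an interval of -0.77 to 1.75. Without that tumour they turned to -0.06 and -0.14.

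Among the other light chains, differences lay on both sides of 0. Slc7a7, an exporter of cationic amino acids found in macrophages, was at 8.63, 8.45 and 8.50 in controls and 8.79, 8.97 and 8.94 in Bptf KD tumours, a difference of 0.37. Slc7a11, which imports cystine for glutathione synthesis and whose window is printed above, was at 6.52, 6.13 and 6.43 against 7.0, 6.62 and 6.70, a difference of 0.41. In neither gene did the groups overlap. Slc7a6, a relative of Slc7a7, differed by -0.21 with groups apart, and Slc7a8 by -0.44 with groups that overlapped. Slc15a3, a lysosomal carrier of histidine and peptides, was at 9.53, 9.62 and 9.24 in controls and at 9.98, 9.85 and 9.87 in Bptf KD tumours. Its groups did not overlap, and its difference was 0.44. None of these passed (limma adjusted p from 0.250 for Slc15a3 and Slc7a7 to 0.346 for Slc7a11, 0.470 for Slc7a6 and 0.600 for Slc7a8). Slc7a7, Slc7a6 and Slc7a8 were picked once their values had been seen.

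On the list of amino acid use and stress 17 of 18 genes were measured, with 9 differences above 0, 8 below, a median of 0.01 and 0 called. An unadjusted p under 0.05 was reached by 2 at higher and 3 at lower levels, beside 7.66% and 5.82% of all genes. Glul, which makes glutamine, was at 10.78, 10.45 and 10.77 in controls and 9.86, 9.78 and 10.25 in Bptf KD tumours, a difference of -0.70 (limma adjusted p = 0.151), and of -0.81 without the tumour labelled control 2, which passed (limma adjusted p = 0.0437). Asns, which uses glutamine to make asparagine, was at 9.73, 9.56 and 9.91 against 9.24, 9.23 and 9.20, a difference of -0.51 (limma adjusted p = 0.161), and of -0.60 without that tumour, which also passed (limma adjusted p = 0.0381). In both the groups did not overlap.

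**Figure D2:**
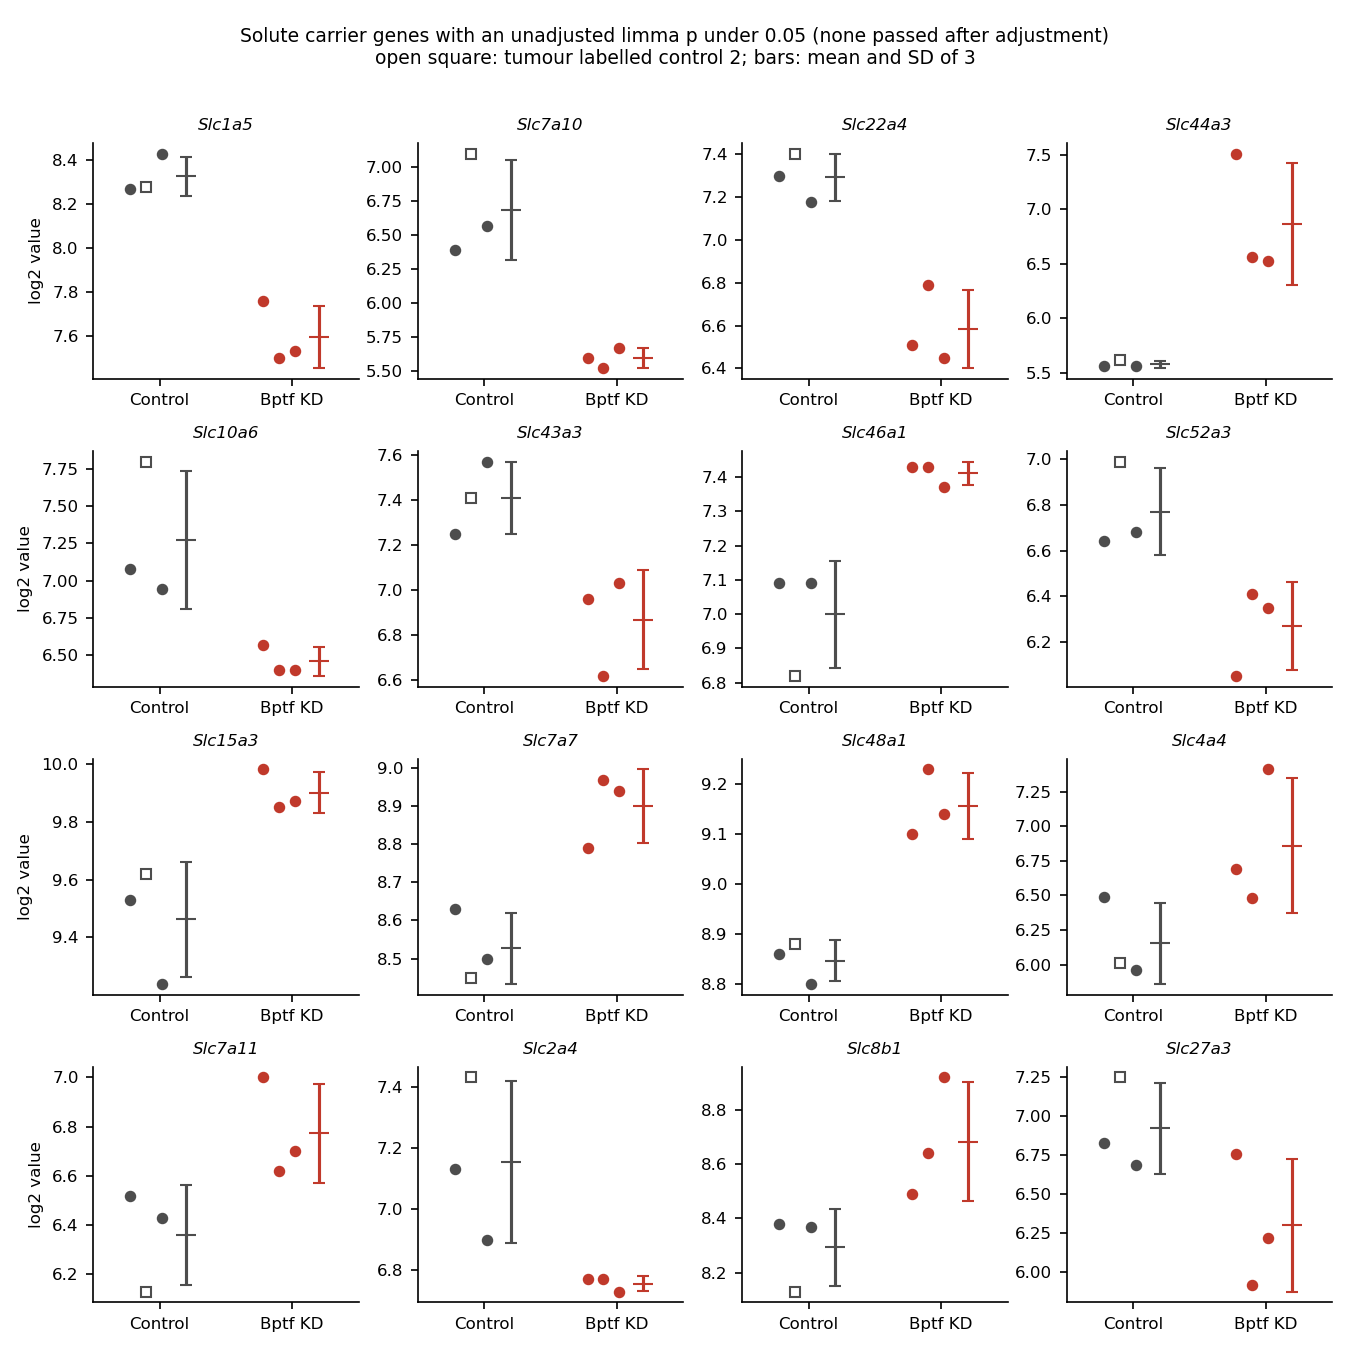
Log2 level of the 16 solute carriers with an unadjusted p under 0.05, in order of p, in each tumour (points), with the mean and SD of 3 tumours beside them. The genes were chosen by this difference, so their separation is a description, and the vertical axes differ between panels. The tumour labelled control 2 (open square) is the highest control for Slc7a10, Slc10a6 and Slc2a4, among others, and the lowest for Slc7a11 and Slc46a1, among others.

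Glucose carriers showed no called difference, and 6 of 9 lay below 0, with a median of -0.05. Slc2a1, the glucose carrier of most dividing cells, was at 12.58, 11.73 and 12.13 in controls and 12.30, 12.36 and 12.10 in Bptf KD tumours. The Bptf KD levels lay inside the spread of the controls. Its difference was 0.11 with a 95% interval of -0.42 to 0.63, -0.10 without the tumour labelled control 2, and 0.07 and 0.13 on its other probe sets.

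Slc2a3, a high-affinity glucose carrier of neurons and white blood cells, was at 8.09, 6.80 and 8.12 in controls and at 7.52, 7.37 and 7.33 in Bptf KD tumours. The tumour labelled control 2 lay below every Bptf KD tumour, and controls 1 and 3 lay above them. With all tumours the difference was -0.26 (limma adjusted p = 0.814), and without that control it was -0.70 and passed (limma adjusted p = 0.0266). The other probe set of Slc2a3 had 7.14, 6.22 and 7.11 against 6.69, 6.87 and 6.63, a difference of -0.09 with all tumours. Slc2a4, the insulin-regulated carrier of fat and muscle, was at 7.13, 7.43 and 6.90 against 6.77, 6.77 and 6.73. Its groups did not overlap, and its difference of -0.40 did not pass (limma adjusted p = 0.346). The fat cell markers above were lower with it, and the tumour with the most muscle RNA had its highest level. The part of either was not tested. Slc2a9, a carrier of urate, differed by 0.27 with groups apart, and Slc45a3, of a family that carries sucrose, by -0.29. Without the tumour labelled control 2, the highest for Slc45a3 at 7.32, that difference was -0.035, and that of Slc2a4 was -0.26.

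Carriers of lactate and related acids had 0 of 5 called and differences between -0.17 and 0.13, with a median size of 0.03 beside 0.17 for all genes. Slc16a1, which takes lactate and protons in or out, was at 13.16, 12.44 and 13.03 in controls and at 12.97, 12.90 and 12.70 in Bptf KD tumours. The groups overlapped, with a difference of -0.02 and a 95% interval of -0.51 to 0.47. Its sign turned without control 1, control 3 or Bptf KD 3. Slc16a8, a lactate carrier known from the retina, differed by -0.17, Slc16a6 by 0.13 (0.22 without the tumour labelled control 2) and Slc16a11 by -0.03. Slc16a3, the lactate exporter of glycolytic cells, lay just below the limit and was not tested.

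Glycolytic enzymes and the chaperones of the lactate carriers, 15 measured genes, had a median of 0.05, with 8 positive, 7 negative and 0 called. Pfkl, a phosphofructokinase, was at 9.27, 8.77 and 9.20 in controls and 9.51, 9.56 and 9.88 in Bptf KD tumours, with groups apart and a difference of 0.57 (limma adjusted p = 0.250). Emb, a chaperone of lactate carriers, differed by -0.44, with groups apart (limma adjusted p = 0.337). Bsg, the chaperone of Slc16a1, lay on the other side of 0, at 0.34, with groups apart (limma adjusted p = 0.359), and was picked once its values had been seen. The 9 hypoxia genes had a median of 0.16 with 0 called. Egln3, a prolyl hydroxylase that marks Hif1a for breakdown, differed by 0.31 and Hif1a, the hypoxia factor itself, by -0.20, each with groups apart (limma adjusted p = 0.482 and 0.515). Their mean level was 9.82 in the tumour labelled control 2, below 10.96 and 10.38 in controls 1 and 3, and the Bptf KD tumours had 10.54 to 10.63.

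Ion carriers lay above 0 in 12 of 20 genes, with a median of 0.08 and 0 called. At an unadjusted p under 0.05, 2 were higher and 0 lower, beside 7.66% and 5.82% of all genes. Slc4a4, which couples sodium to bicarbonate, was at 6.49, 6.01 and 5.96 in controls and at 6.69, 6.48 and 7.41 in Bptf KD tumours. Bptf KD 3 was far above the rest, and Bptf KD 2 lay just below control 1. Its difference was 0.71 (SE 0.27, limma adjusted p = 0.338) on this probe set and 0.03 on its other, so that the probe sets differed in size.

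Slc8b1, a sodium and calcium exchanger that works in mitochondria in spite of the family it belongs to, was at 8.38, 8.13 and 8.37 against 8.49, 8.64 and 8.92. Its groups did not overlap, with a difference of 0.39 (limma adjusted p = 0.347). Slc4a2, which exchanges chloride for bicarbonate, differed by 0.37, and by 0.22 without the tumour labelled control 2. Slc20a1, a phosphate carrier chosen after its values were seen, differed by 0.85, and by 0.44 without that tumour, with wide groups: 9.23, 8.45 and 10.11 in controls and 9.83, 9.62 and 10.89 in Bptf KD tumours. Slc12a2, which carries sodium, potassium and chloride together, was at 10.41, 10.52 and 10.72 in controls and between 10.46 and 10.47 in Bptf KD tumours, a difference of -0.08 with a 95% interval of -0.38 to 0.21. On the list of pumps, their subunits and carbonic anhydrases 0 of 15 were called, with a median of 0.12. Fxyd1, a small subunit of the sodium pump found in muscle and heart, differed by -1.31 (limma adjusted p = 0.297), and by -0.73 without the tumour labelled control 2, which passed (limma adjusted p = 0.0392). That tumour held its highest level and the most muscle RNA. Car4, a membrane-bound carbonic anhydrase, differed by -0.89, with groups that overlapped (limma adjusted p = 0.327).

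Apart from the scaffold and adaptor genes, metal carriers were the class measured most completely, with 26 of 27 genes. Of the metal carriers 16 lay above 0, with a median of 0.09 and 0 called. Slc48a1, which moves heme out of lysosomes, was at 8.86, 8.88 and 8.80 in controls and 9.10, 9.23 and 9.14 in Bptf KD tumours. The groups did not overlap and both were tight, with a difference of 0.31 (SE 0.11, limma adjusted p = 0.297). On its other probe set the levels were 8.68, 8.46 and 8.45 against 9.07, 9.20 and 9.14, a difference of 0.61, also apart.

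Among the zinc carriers, Slc39a4, a zinc importer, was at 6.01, 5.63 and 5.95 against 7.23, 6.02 and 6.14. Its controls lay below the limit of 6.09, so that it was kept through its Bptf KD levels, of which the first stood far above the rest. Its difference was 0.60 (limma adjusted p = 0.501), and 0.22 without Bptf KD 1. Slc30a3, which loads zinc into vesicles, differed by -0.21 with groups apart. Slc39a14, an importer of zinc and iron, was at 10.26, 9.44 and 10.25 in controls and at 9.79, 9.75 and 9.66 in Bptf KD tumours. The tumour labelled control 2 lay below all others. With it the difference was -0.25 (limma adjusted p = 0.714), and without it -0.52, which passed (limma adjusted p = 0.0471). The other probe set of Slc39a14 had 6.79, 6.72 and 6.79 against 6.70, 6.80 and 6.59, a difference of -0.07 with all tumours.

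Slc40a1, the iron exporter ferroportin, was at 9.18, 8.18 and 7.75 in controls and 8.99, 8.66 and 8.39 in Bptf KD tumours, and the groups overlapped. Its difference was 0.31 with a 95% interval of -0.56 to 1.18. Slc11a1, which pumps metals out of the phagosomes of macrophages, was at 8.48, 8.29 and 8.30 against 8.62, 8.07 and 8.57, a difference of 0.06. Of 8 macrophage markers, all measured, 6 were above 0, with a median of 0.21 and 0 called. Mrc1, the mannose receptor, had the smallest p of the list and lay below 0, at -0.75, with groups apart (limma adjusted p = 0.136). Their summed level ran from 15.19 to 15.49 in controls and from 15.39 to 15.63 in Bptf KD tumours. That is the list beside which the higher levels of Slc7a7, Slc15a3 and Slc48a1 stand, and its part in them was not tested.

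On the list of iron, zinc and copper handling 14 genes were measured, 8 above 0 and 6 below, with a median of 0.04, 0 called higher and 1 lower. Steap4, a metalloreductase of fat and other tissues, was at 10.07, 10.19 and 9.67 in controls and 8.01, 7.72 and 7.68 in Bptf KD tumours, and fell by 2.17 on the log2 scale (limma adjusted p = 0.00931). Cp, the copper-bearing ferroxidase that works with ferroportin, was at 12.80, 11.20 and 11.22 against 13.45, 13.10 and 13.19. Its groups did not overlap, and its difference of 1.51 did not pass (limma adjusted p = 0.204).

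The other organic solute carriers, 32 genes, had a median of -0.01 and 0 called. They held 7 of the 16 with an unadjusted p under 0.05, 5 lower and 2 higher. Over all genes 5.82% were lower and 7.66% higher at that p. Slc22a4, a carrier of ergothioneine and organic cations, was at 7.30, 7.40 and 7.18 in controls and 6.51, 6.79 and 6.45 in Bptf KD tumours. The groups lay well apart, with means of 7.29 ± 0.11 and 6.58 ± 0.18 (SD, n = 3 each). The difference was -0.71 (SE 0.14) and did not pass (limma adjusted p = 0.0879). Fibroblast and matrix markers were lower with it, as with Slc1a5. All 12 of 12 were measured and lay below 0, 5 of them called, with a median of -0.94 and a summed level from 16.08 to 16.28 in controls and from 14.96 to 15.20 in Bptf KD tumours. Their part in either gene was not tested.

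Slc44a3, of the choline transporter-like family, was at 5.56, 5.62 and 5.56 in controls and at 7.51, 6.56 and 6.53 in Bptf KD tumours. All controls lay below the limit of 6.09 and within 0.06 of each other, and Bptf KD 1 was the highest. The difference was 1.29 (SE 0.27), which did not pass (limma adjusted p = 0.101), and a gene kept through its Bptf KD levels had to differ in this direction. Epithelial markers lay higher with it: of 9 markers, all measured, 8 were above 0, 0 of them called, with a summed level from 14.89 to 15.29 in controls and from 15.27 to 15.45 in Bptf KD tumours. Their part in it was not tested.

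Slc10a6, a carrier of sulfated steroids, was at 7.08, 7.80 and 6.94 in controls and 6.57, 6.40 and 6.40 in Bptf KD tumours. The groups lay apart, with a difference of -0.82 and the tumour labelled control 2 the highest (limma adjusted p = 0.205). Without that tumour the difference was -0.55 and did not pass either (limma adjusted p = 0.0507). Carriers of vitamins lay on both sides of 0. Slc46a1, which takes up folate, was at 7.09, 6.82 and 7.09 against 7.43, 7.43 and 7.37, and Slc52a3, which takes up riboflavin, at 6.64, 6.99 and 6.68 against 6.05, 6.41 and 6.35. Their differences were 0.41 and -0.50, both with groups apart and neither past the threshold (limma adjusted p = 0.230 and 0.248). Slc43a3, a carrier of purine bases, differed by -0.54 and Slc27a3, of the fatty acid transport family, by -0.62. Slc27a1, the fatty acid transport protein of fat and muscle, was at 7.82, 7.82 and 7.55 in controls and 7.59, 7.70 and 7.77 in Bptf KD tumours. It differed by -0.04, with a 95% interval of -0.35 to 0.27, and its groups overlapped. Without the tumour labelled control 2 it turned to 0.0017. Slc46a1, Slc52a3, Slc43a3 and Slc27a3 were picked once their values had been seen.

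The 3 genes named after carriers that are scaffolds or adaptors all lay above 0. Slc9a3r1, a scaffold that ties carriers and receptors to the cortex of epithelial cells, was at 9.43, 10.19 and 9.56 in controls and 9.98, 10.24 and 10.06 in Bptf KD tumours. The tumour labelled control 2 lay among the Bptf KD tumours. With it the difference was 0.37 (limma adjusted p = 0.540), and without it 0.60, which passed (limma adjusted p = 0.0490). Its 3 probe sets gave 0.35 to 0.37. Slc9a3r2, a close relative, differed by 0.29 and Slc4a1ap, an adaptor, by 0.28, each with groups apart. Without the tumour labelled control 2 these were 0.41 and 0.13. The other probe sets of Slc9a3r2 gave smaller differences with all tumours, 0.07 to 0.27, and on most of them the groups overlapped.

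**Figure D3:**
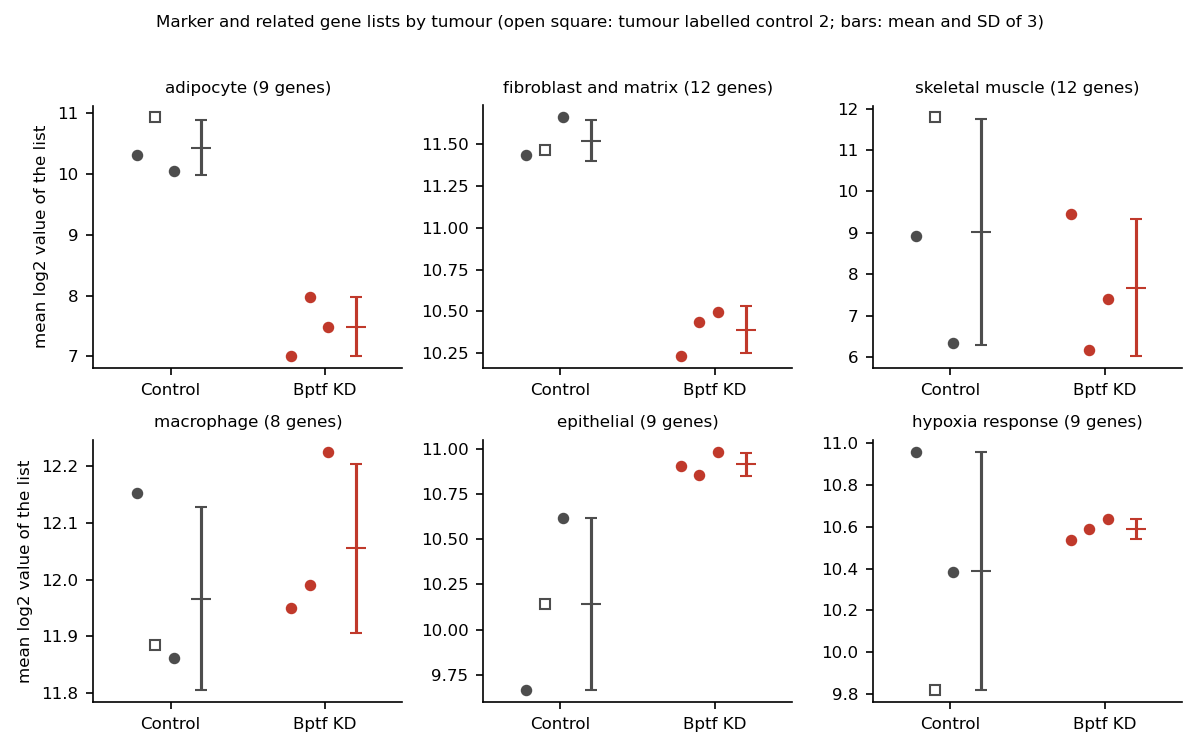
Mean log2 level of 6 gene lists in each tumour (points), with the mean and SD of 3 tumours beside them, on axes that differ between panels. The adipocyte and fibroblast lists are lower in every Bptf KD tumour than in any control. The epithelial list is higher on this mean of log2 levels, though its summed levels overlap, while the muscle, macrophage and hypoxia lists overlap between groups.

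Leaving out the tumour labelled control 2 brought 7 carriers past the threshold, 6.03% beside 4.46% of all genes. Of these, 6 were lower (5.17% beside 2.52% of all genes) and 1 higher (0.862% beside 1.94%). The lower ones were Slc1a5 (-0.75), Slc7a10 (-0.89), Slc7a8 (-0.77), Slc2a3 (-0.70), Slc22a4 (-0.66) and Slc39a14 (-0.52), with limma adjusted p from 0.0176 to 0.0495, and the higher one Slc9a3r1. Slc7a10, with the smallest of these p, had passed the filter only through its control levels and so had to differ in this direction. Slc1a5, Slc7a10 and Slc22a4 had differences of -0.73, -1.09 and -0.71 with all tumours. Those of Slc7a8, Slc2a3 and Slc39a14 were smaller with all tumours, at -0.44, -0.26 and -0.25, and in these the tumour labelled control 2 held the lowest of the 6 levels. With all tumours the other probe sets of Slc2a3 and Slc39a14 gave -0.09 and -0.07. Choosing a tumour to leave out with its levels known favours a smaller p, so these calls are not independent evidence.

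**Figure D4:**
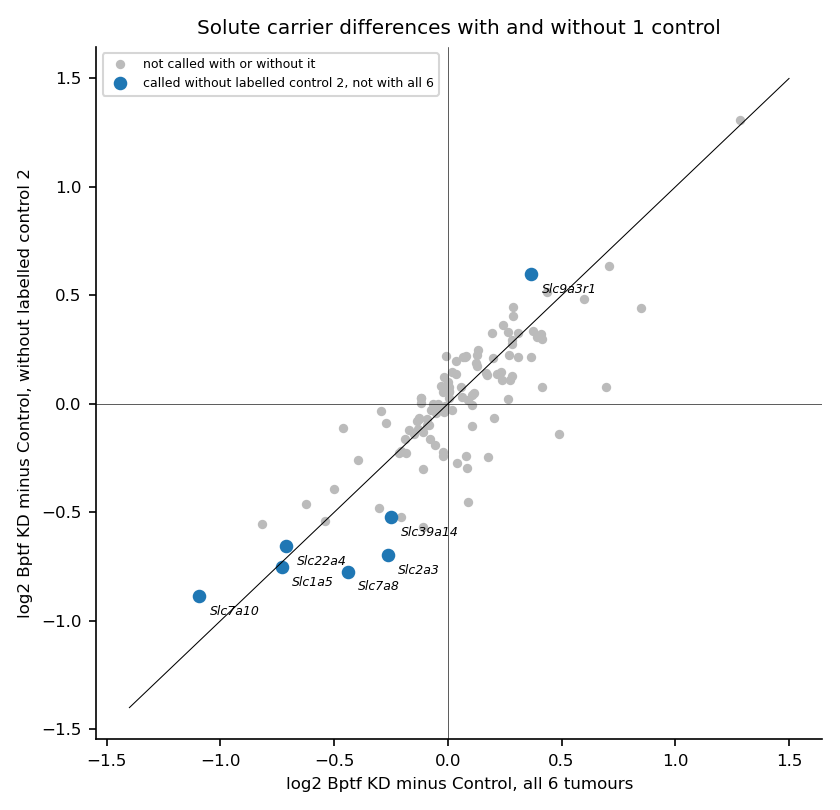
Log2 difference, Bptf KD minus control, of the 116 solute carriers with all 6 tumours (horizontal) and without the tumour labelled control 2 (vertical); the line marks equal values. The 7 carriers called without that tumour are blue and named, and of these Slc2a3, Slc7a8 and Slc39a14 lie well below the line.

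The tumour labelled control 2 was itself far from the other controls in several carriers. In 11 carriers, 9.48% of the 116, its distance from the mean of controls 1 and 3 was 2-fold or more, beside 8.69% of all genes. For each of the other 5 tumours, set against the rest of its group, the same measure gave 1 to 3 carriers. Of the 11 it was lower in 10. Slc29a3, a nucleoside carrier of lysosomes, was at 6.40 there against 8.24 and 8.28, and Slc44a2, a choline transporter-like protein, at 8.71 against 10.30 and 10.35. Slc6a6, which carries taurine, was at 8.70 against 10.16 and 9.98. Slc39a8, an importer of zinc and manganese, was the exception, at 8.84 against 7.70 and 7.88. The muscle and hypoxia lists above moved with this tumour, as did keratinocyte markers, of which 4 of 8 were measured, at a mean of 10.26 against 7.17 and 7.40 in controls 1 and 3. Its 3-prime to 5-prime difference for Actb, a sign of RNA quality, was 1.23, against 0.76 to 1.05 on the other arrays. For Gapdh the same measure was 0.06, close to the -0.08 to 0.04 of the other arrays. The part of these in its carrier levels was not tested. The carriers of this paragraph were picked once their values had been seen.

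**Figure D5:**
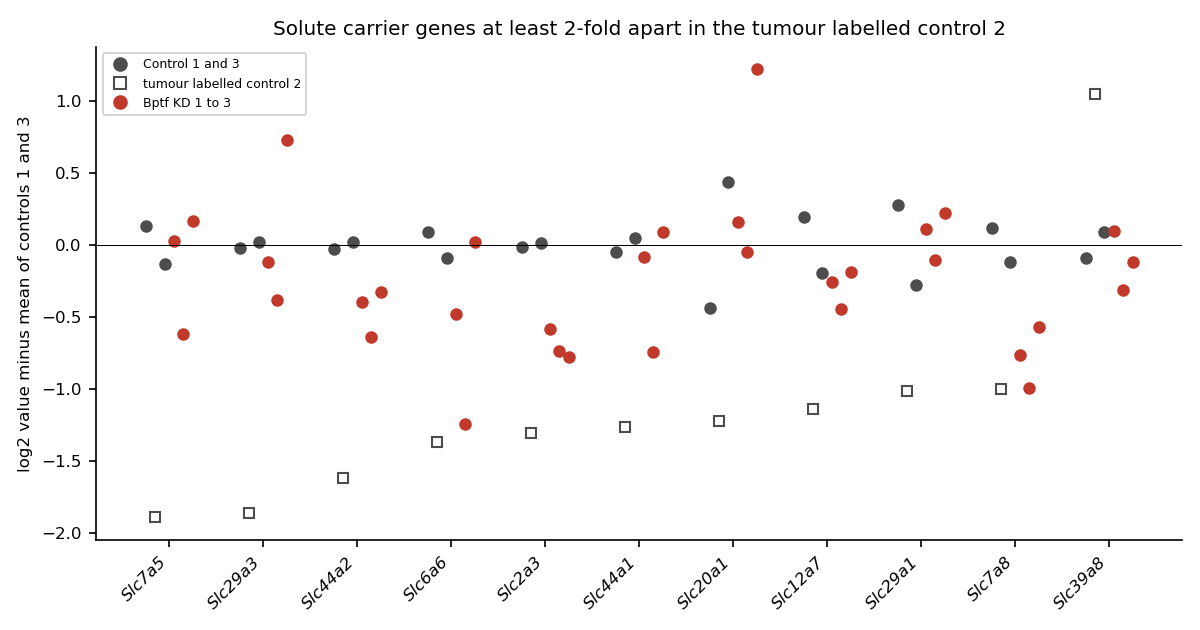
Log2 level minus the mean of controls 1 and 3, in every tumour, for the 11 solute carriers chosen because the tumour labelled control 2 (open squares) was 2-fold or more from that mean. The open squares run from -1.89 for Slc7a5 to 1.05 for Slc39a8, and the Bptf KD points (red) of Slc7a8 and Slc6a6 reach down nearly to them.

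The probe sets of a gene mostly went the same way. Of 34 carriers with several probe sets above the limit, 24 had all their differences on the same side of 0. Slc38a10, of a family of neutral amino acid carriers and chosen for its number of probe sets, was read by 6 probe sets, with differences of 0.03 to 0.15. The carriers of the Slc25, Slc35 and Slc37 families, 49 genes measured in the same way, also had 0 called. They held 2 genes at an unadjusted p under 0.05, or 4.08%, and their groups did not overlap in 5, or 10.2%. Whether they differ in this from the carriers described here was not tested.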

How the data were processed

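RNA from 6 tumours (500 ng each) was hybridised to Affymetrix arrays, 1 per tumour. The deposited log2 values came from RMA, whose version is not stated, per the submitters' processing notes. The base 2 was taken from their range of 2.98 to 15.17. RMA values carry no detection call, and the number of arrays limits the precision. GEO's platform annotation gave 20380 of 22690 probe sets 1 gene. The probe set with the highest mean stood for a gene, and those in the lowest 30% were left out. The groups were compared with limma (version 3.58.1, R 4.3.3; lmFit and eBayes without covariates, Benjamini-Hochberg over 9248 genes) and, for single genes, exact two-sided permutation tests. P-values measure the spread between these tumours, which the labels give as separate biological samples. The procedure was tested on simulated data.

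The members, lists and tests were chosen with earlier results of these data known. Named were the 3 carriers of smallest p in each class, 16 fixed carriers of which 14 were measured, Bptf, and of each related list the genes called and the 2 of smallest p. Other genes are named as chosen after their values were seen. Substrate classes follow the symbol. Protein sequences were not analysed here.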

Additional observations from a re-analysis of the deposited data

How the results depend on the processing

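Of 18 alternatives, 16 left both counts of called carriers at 0. Array weights (limma, whose fit stopped before converging) called 8 carriers higher and 10 lower, beside 18.1% of all genes. They gave the tumour labelled control 2 a weight of 0.15, control 1 one of 0.757 and control 3 one of 4. The control level of that run thus rests mostly on control 3. Leaving out each tumour in turn gave 0 to 1 higher and 0 to 6 lower, and the calls came without the tumour labelled control 2 alone. Over all genes the count fell from 75 to 10, 2, 6 and 0 without control 3 and Bptf KD 1, 2 and 3, and was 1 with the ordinary test, against 412 without the tumour labelled control 2. Bptf passed with array weights (-0.88, limma adjusted p = 0.00905), and ran from -0.92 to -0.46 as tumours were left out. Of 32 named carriers 24 did not change direction in any alternative run, though Slc40a1 reached 0. Leaving out tumours turned 8, which ran from -0.0367 to 0.24 for Slc11a1, -0.153 to 0.00167 for Slc12a2, -0.24 to 0.12 for Slc16a1, -0.0783 to 0.0117 for Slc16a11, -0.13 to 0.005 for Slc27a1, -0.10 to 0.32 for Slc2a1, -0.0633 to 0.45 for Slc3a2 and -0.14 to 0.87 for Slc7a5. Array weights gave 0.0669 for Slc27a1. The median of the other organic solutes was 0.0667 with the stricter filter, 0.0391 with array weights and -0.0908 to 0.00167 over the left-out tumours. The cause was not tested.

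With the replicate number as a block 0 carriers were called higher and 0 lower, 107 of all genes were called, and Bptf differed by -0.63. The deviations of same-numbered tumours from their group means had correlations of 0.0054, 0.28 and 0.37. Between tumours of unlike number they ran from -0.44 to 0.35. Not every tumour correlated best with its own number, and the labels tie the numbers to nothing shared.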
